A study of Mus musculus with 8 samples.

Results

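The genes described here are 36 mouse genes of the response to low oxygen and of glycolysis. They come from a list of symbols chosen with earlier results of these data known. They comprise 5 genes of oxygen sensing, 12 targets of the hypoxia-inducible factors (HIF), 3 sugar and lactate transporters and 16 enzymes or regulators of glycolysis. All 36 had a probe on the array and 35 could be tested, out of 14141 genes tested in all. The remaining one, Mxi1, a partner of MAX that opposes Myc, was well above background in 0 of 16 tumours.

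The data come from 16 mammary tumours of the MMTV-PyMT model, hybridised as 1 colour each on 8 Agilent arrays with 2 colours. In this mouse model the mammary tumour virus promoter drives expression of the polyoma middle T oncogene in mammary epithelium. Pieces of these tumours had been grown orthotopically in wild-type FVB mice, which all groups share. Treated mice were given intraperitoneal RANK-Fc, which captures RANK ligand, a cytokine, away from its receptor, at 10 mg/kg and 3 times a week. Animal ages are not given in the sources used here. Passage 2 comprised 4 groups: treatment in passages 1 and 2 ("prior and current", 3 tumours), RANK-Fc in passage 1 alone ("prior", 3), RANK-Fc in passage 2 alone ("current", 3) and no RANK-Fc ("passage 2 control", 2). Passage 1 comprised RANK-Fc tumours (3) and controls (2). The labels call prior treatment neoadjuvant and current treatment adjuvant, and that the neoadjuvant treatment fell in passage 1 is a reading of the group codes. Every tumour carries its own animal number, and the parent tumours of the passage 2 pieces are not named. In RNA from whole tumour pieces, fewer cells of a type and less RNA per cell cannot be told apart.

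Cells sense oxygen through prolyl hydroxylases that mark the HIF alpha subunits for capture by the von Hippel-Lindau protein and destruction. When oxygen is scarce the alpha subunits persist, pair with ARNT and bind a short core sequence, the hypoxia response element, in the promoters and enhancers of their targets. Those targets raise blood vessel growth, glucose uptake, glycolysis and lactate export, and they divert pyruvate from mitochondria. HIF activity is set largely by the stability of the alpha subunit proteins, which an mRNA array does not measure. Solid tumours often hold poorly perfused regions in which this programme is active, and many tumours also run high glycolysis in the presence of oxygen.

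The promoters of the members were searched for the core of the hypoxia response element, spelled ACGTG or GCGTG, on both strands over the 250 bases before each annotated start. The sequences below are from RefSeq on GRCm38.p6, with the core matches on either strand in capitals. They show 5 members that were higher in passage 2 (Ankrd37, Bnip3, P4ha2, Pgk1 and Slc16a3) and 1 that did not pass the test (Ldha, the first of its 2 starts in the table). Ankrd37 lies at chr8:45999851-46000100 on the minus strand, Bnip3 at chr7:138909507-138909756 on the minus strand, P4ha2 at chr11:54100674-54100923 on the plus strand, Pgk1 at chrX:106186850-106187099 on the plus strand, Slc16a3 at chr11:120948817-120949066 on the plus strand and Ldha at chr7:46845554-46845803 on the plus strand.
Ankrd37: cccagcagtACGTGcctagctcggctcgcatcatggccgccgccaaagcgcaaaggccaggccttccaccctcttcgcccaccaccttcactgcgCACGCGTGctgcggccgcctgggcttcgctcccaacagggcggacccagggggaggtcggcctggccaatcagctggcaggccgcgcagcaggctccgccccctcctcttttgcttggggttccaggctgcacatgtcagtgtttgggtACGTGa
Bnip3: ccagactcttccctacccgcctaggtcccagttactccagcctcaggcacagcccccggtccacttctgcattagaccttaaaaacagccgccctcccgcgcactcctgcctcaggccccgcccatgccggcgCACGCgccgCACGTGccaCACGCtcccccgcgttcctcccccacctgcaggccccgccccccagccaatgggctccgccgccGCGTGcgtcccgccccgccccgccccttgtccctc
P4ha2: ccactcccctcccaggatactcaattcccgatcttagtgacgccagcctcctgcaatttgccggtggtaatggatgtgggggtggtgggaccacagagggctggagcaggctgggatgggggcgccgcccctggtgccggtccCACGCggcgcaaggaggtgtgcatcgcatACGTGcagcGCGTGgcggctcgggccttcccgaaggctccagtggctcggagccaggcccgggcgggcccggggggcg
Pgk1: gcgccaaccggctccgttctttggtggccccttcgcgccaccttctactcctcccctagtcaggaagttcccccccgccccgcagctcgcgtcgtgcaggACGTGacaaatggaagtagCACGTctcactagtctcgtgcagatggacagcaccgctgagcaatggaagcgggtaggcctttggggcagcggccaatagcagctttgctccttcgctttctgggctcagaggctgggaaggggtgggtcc
Slc16a3: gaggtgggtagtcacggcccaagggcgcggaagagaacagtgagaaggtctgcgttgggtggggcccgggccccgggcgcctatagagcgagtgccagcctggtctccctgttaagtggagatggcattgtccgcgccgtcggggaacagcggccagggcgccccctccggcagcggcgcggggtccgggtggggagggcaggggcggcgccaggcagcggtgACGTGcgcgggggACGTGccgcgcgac
Ldha: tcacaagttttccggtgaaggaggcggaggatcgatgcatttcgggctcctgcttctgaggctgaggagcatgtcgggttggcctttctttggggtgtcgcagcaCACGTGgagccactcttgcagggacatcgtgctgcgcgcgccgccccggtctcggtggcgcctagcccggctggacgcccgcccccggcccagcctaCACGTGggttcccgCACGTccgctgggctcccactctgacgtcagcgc

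Slc16a3 and Pgk1 each held 2 copies of ACGTG, those of Slc16a3 beginning 14 and 27 bases before the start. Bnip3 held 5 matches, among them the palindrome CACGTG, which counts once on each strand. The Ldha window held 5 copies of ACGTG, 4 of them in 2 such palindromes. Among the members in the promoter table, 29 of 32 (90.6%) had a match before at least 1 start, against 41.5% of all 27025 genes in it. The share was 18 of 19 (94.7%) for members that were higher in passage 2 and 10 of 12 (83.3%) for the other members tested. Counted by start, 76.0% of 25 promoters of the higher members and 77.8% of 18 promoters of the others held a match, against 38.6% of all 32851. A match describes letters in this window and is not evidence of binding.

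Of the spots, 47.5% to 56.5% per tumour were well above background and 0 were saturated. This share split by dye, with 47.5% to 52% in Cy5 tumours and 54.1% to 56.5% in Cy3 tumours. Levels given per tumour are normalised log2 intensities. The dye term of the model is not removed from them, unlike from the fitted differences. Precision is limited by the small number of arrays. Each of the 7 markers of mammary epithelium was above background in all 16 tumours. Current replicate 3 stood apart by markers of other tissues: its mean log2 intensity was 13.33 over 6 fibroblast genes and 11.14 over 6 macrophage genes, the highest of the 16 tumours for both. Its mean over 5 skeletal muscle genes was 8.32, below only the 9.06 of prior replicate 1. Passage 1 control replicate 1 had the highest mean over 4 adipocyte genes, 11.27.

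**Figure D1:**
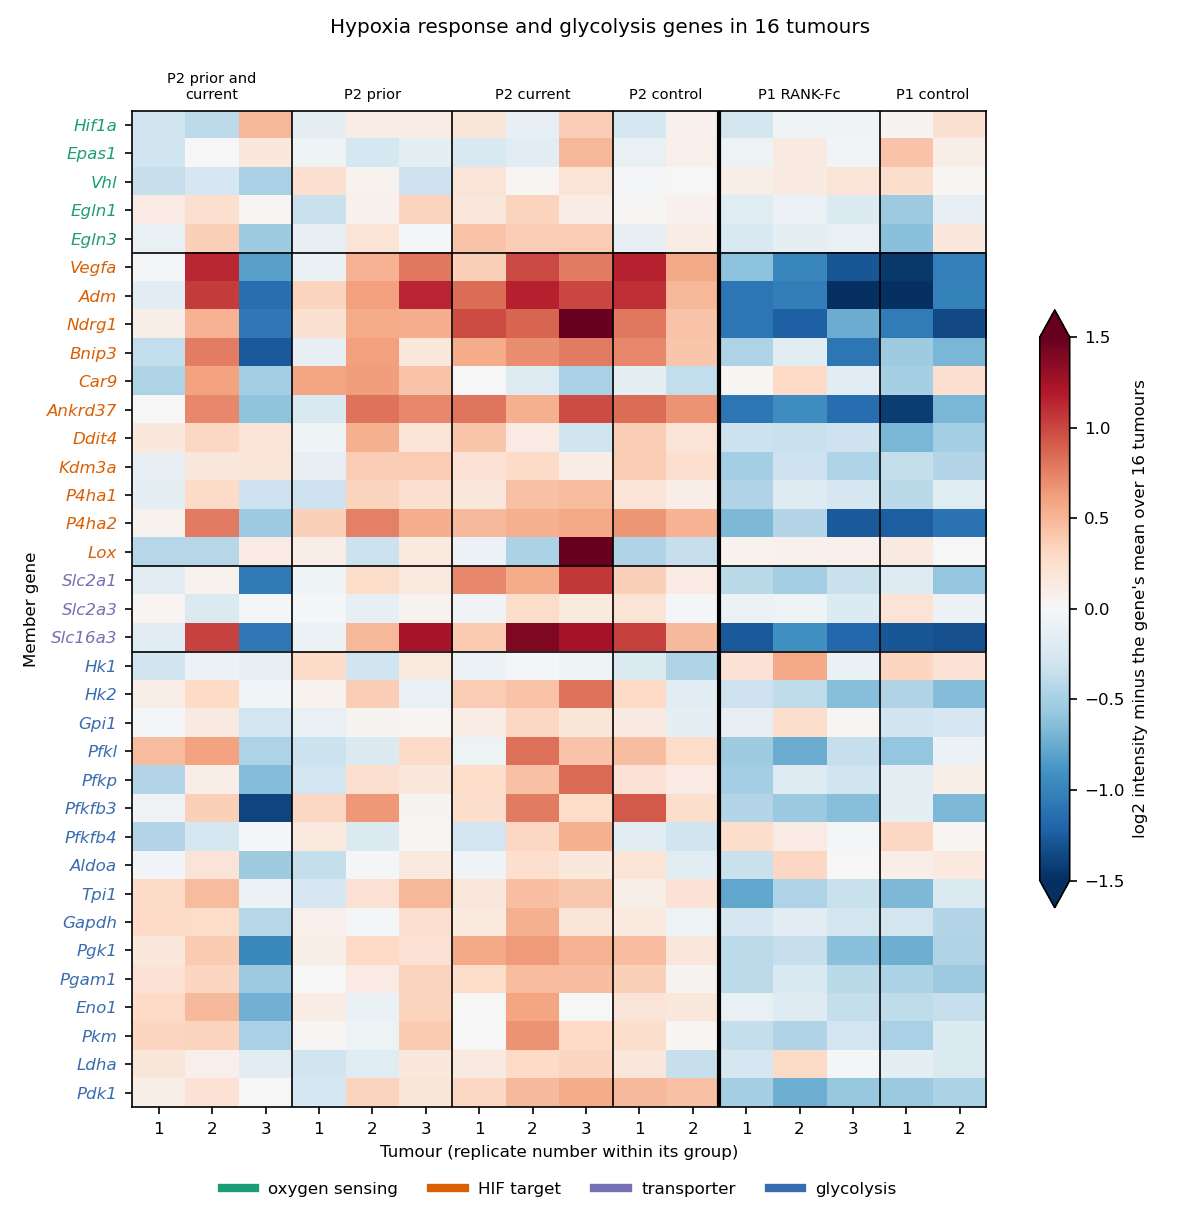
Deviation of each of the 35 members tested (rows, coloured by role) from its own mean over the 16 tumours (columns, by group), in log2 intensity, with the colour scale capped at 1.5 either way. HIF targets, transporters and glycolysis genes are mostly red in passage 2 and blue in passage 1, and prior-and-current replicate 3 is blue for most of the same genes.

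The first comparison asked how the 5 passage 2 tumours without prior RANK-Fc differed from the 5 passage 1 tumours, averaged over control and RANK-Fc tumours. Of 35 members tested, 20 rose in passage 2 and 1, Hk1, fell (limma, adjusted p under 0.05). The median difference over the members was 0.58 on the log2 scale, against -0.002 over all genes. Without current replicate 3 the members past the test were 17, and without prior-and-current replicate 3 they were 23. Of all 14141 genes, 12.0% were called, 4.26% higher and 7.73% lower. With each channel centred on its median in place of the normalisation between arrays, 11 members rose and 0 fell; 19.2% of all genes called were then higher, in place of 35.6%, and the median was 0.49 over the members and -0.12 over all genes. By role, 9 of 11 HIF targets, 2 of 3 transporters, 9 of 16 glycolysis genes and 0 of 5 oxygen-sensing genes rose. In 23 of 35 members all 5 of these passage 2 tumours lay above all 5 passage 1 tumours, a pattern found in 5.66% of all genes. The opposite order occurred for 0 members and for 8.25% of all genes.

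**Figure D2:**
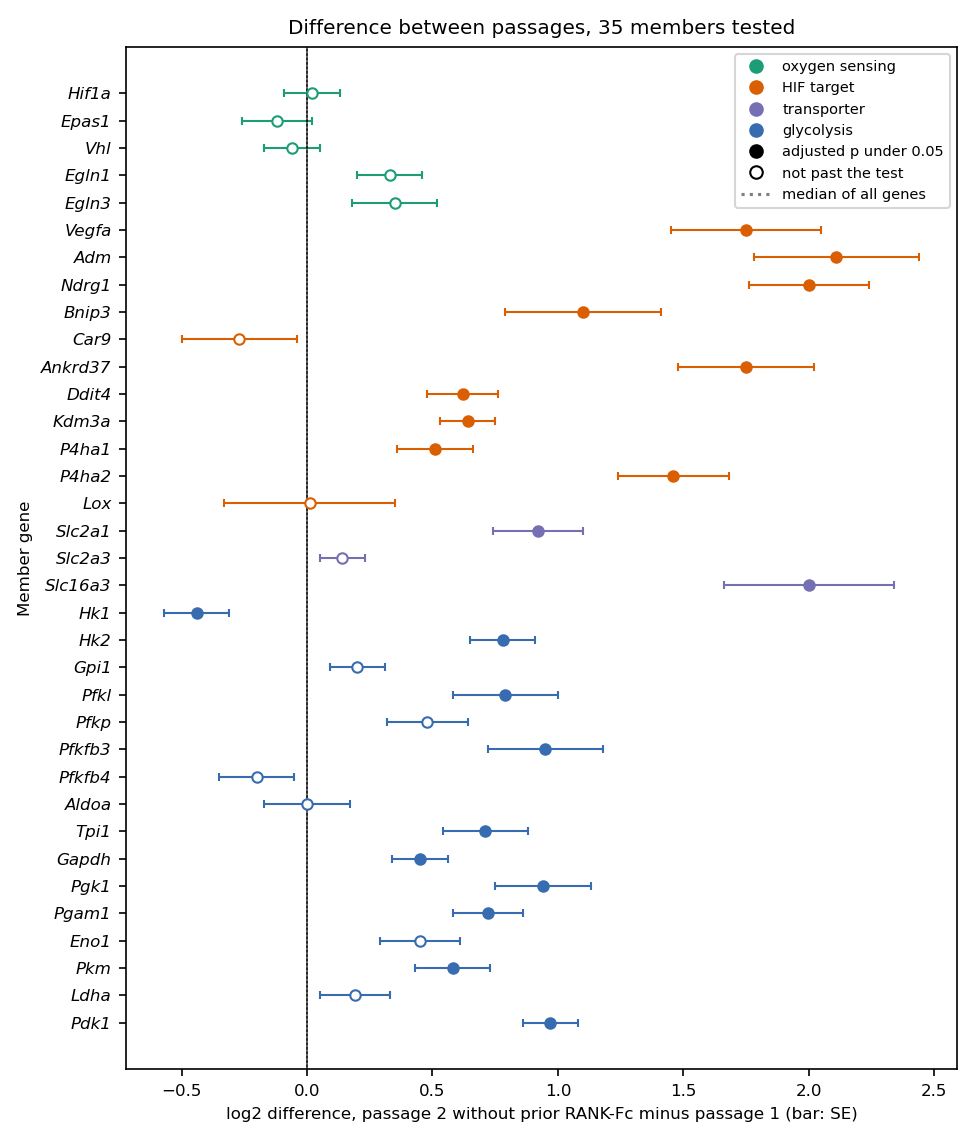
Difference in log2 intensity between passage 2 tumours without prior RANK-Fc and passage 1 tumours for the 35 members tested, with the SE as bar and filled points for members past the test. Adm, Ndrg1 and Slc16a3 sit at 2.00 or above, while Hif1a, Lox and Aldoa sit within 0.02 of 0.

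Among the genes of oxygen sensing none passed the test in this comparison, and their differences ran between -0.12 and 0.35. Hif1a, the alpha subunit of the factor induced by hypoxia in most cells, had log2 intensities of 8.87, 8.78 and 9.67 in prior-and-current, 9.03, 9.28 and 9.28 in prior and 9.35, 9.04 and 9.54 in current tumours, and 8.90 and 9.23 in passage 2 controls. In passage 1 the levels were 8.89, 9.10 and 9.11 in RANK-Fc tumours and 9.21 and 9.40 in controls. The passages overlapped, and the difference between them was 0.02 ± 0.11 (SE, adjusted p = 0.915). Within passage 1 the RANK-Fc tumours lay narrowly below both controls (at most 9.11 against at least 9.21). This difference did not pass the test, and the share of all genes with this order is not available here.

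Epas1 encodes the second alpha subunit, best known from endothelium and kidney. Its levels were 11.19, 11.49 and 11.64 in prior-and-current, 11.42, 11.22 and 11.34 in prior and 11.26, 11.33 and 11.98 in current tumours, and 11.38 and 11.56 in passage 2 controls, against 11.41, 11.62 and 11.45 in passage 1 RANK-Fc tumours and 11.91 and 11.59 in passage 1 controls. The difference was -0.12 ± 0.14 (SE, adjusted p = 0.622), and the 3 probes of Epas1 gave values on both sides of 0, between -0.12 and 0.25. Vhl, which captures hydroxylated HIF alpha subunits, gave 9.78, 9.88 and 9.64 in prior-and-current, 10.38, 10.18 and 9.82 in prior and 10.32, 10.16 and 10.34 in current tumours, and 10.10 and 10.13 in passage 2 controls. Passage 1 tumours had 10.22, 10.27 and 10.32 in RANK-Fc tumours and 10.40 and 10.16 in controls. It differed by -0.06 ± 0.11 (SE, adjusted p = 0.754) between passages, and the prior-and-current tumours had the lowest mean of the 6 groups.

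Egln3 encodes a HIF prolyl hydroxylase that is itself a HIF target. It was measured at 12.01, 12.48 and 11.59 in prior-and-current, 12.00, 12.33 and 12.10 in prior and 12.55, 12.49 and 12.50 in current tumours, and 12.00 and 12.23 in passage 2 controls. Passage 1 gave 11.89, 11.97 and 12.01 in RANK-Fc tumours and 11.49 and 12.28 in controls. The current tumours lay above every other tumour, if narrowly, and the other groups overlapped. Its difference of 0.35 ± 0.17 (SE, adjusted p = 0.224) did not pass the test, nor did that of Egln1, the main hydroxylase of HIF alpha, at 0.33 ± 0.13 (SE, adjusted p = 0.129).

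Adm and Vegfa, HIF targets that act on blood vessels, rose. Adm, the vasodilator peptide adrenomedullin, had levels of 8.84, 10.05 and 7.87 in prior-and-current, 9.34, 9.62 and 10.15 in prior and 9.84, 10.17 and 10.00 in current tumours, and 10.10 and 9.50 in passage 2 controls. Against these, passage 1 tumours had 7.92, 7.96 and 7.44 in RANK-Fc tumours and 7.24 and 7.99 in controls. Every tumour of passage 2 except prior-and-current replicate 3 lay above every tumour of passage 1. Adm rose by 2.11 ± 0.33 (SE, adjusted p = 0.00158), a 4.31-fold difference.

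Vegfa, the main growth factor of blood vessels, was measured at 10.74, 11.88 and 9.94 in prior-and-current, 10.66, 11.28 and 11.54 in prior and 11.11, 11.74 and 11.53 in current tumours, and 11.91 and 11.32 in passage 2 controls. The passage 1 levels were 10.14, 9.77 and 9.47 in RANK-Fc tumours and 9.31 and 9.73 in controls. Only prior-and-current replicate 3 of passage 2 lay inside the passage 1 range. The averaged difference was 1.75 ± 0.30 (SE, adjusted p = 0.00244), and the other probe of Vegfa gave 1.74.

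Ndrg1 is a stress-response protein whose mRNA is strongly induced by hypoxia. Its levels were 12.90, 13.33 and 11.73 in prior-and-current, 13.03, 13.36 and 13.35 in prior and 13.79, 13.68 and 14.34 in current tumours, and 13.60 and 13.23 in passage 2 controls. Passage 1 tumours gave 11.72, 11.58 and 12.06 in RANK-Fc tumours and 11.76 and 11.45 in controls. Ndrg1 rose by 2.00 ± 0.24 (SE, adjusted p = 0.000418), 3.99-fold, and its highest level was in current replicate 3. Ankrd37, an ankyrin repeat protein whose gene is a HIF target, had 9.38, 10.09 and 8.77 in prior-and-current, 9.14, 10.19 and 10.09 in prior and 10.17, 9.90 and 10.35 in current tumours, and 10.21 and 10.05 in passage 2 controls. In passage 1 it had 8.29, 8.44 and 8.23 in RANK-Fc tumours and 7.95 and 8.68 in controls. All 11 passage 2 tumours lay above all 5 passage 1 tumours, and the difference was 1.75 ± 0.27 (SE, adjusted p = 0.00139).

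Bnip3 marks mitochondria for removal by autophagy. Its values were 11.16, 12.30 and 10.28 in prior-and-current, 11.41, 12.15 and 11.69 in prior and 12.09, 12.23 and 12.31 in current tumours, and 12.25 and 11.95 in passage 2 controls. Passage 1 tumours had 11.07, 11.37 and 10.45 in RANK-Fc tumours and 11 and 10.85 in controls. Bnip3 rose by 1.10 ± 0.31 (SE, adjusted p = 0.0355), and its 3 probes gave differences between 0.42 and 1.10. Its call was lost in 3 of 11 other settings and in 9 of the 16 fits on 15 tumours, with adjusted p of up to 0.122. With median centring of the channels 5 of 11 HIF targets rose, and without current replicate 3, the tumour with the highest Bnip3, 7 did.

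P4ha1 and P4ha2 encode catalytic subunits of the hydroxylase that stabilises collagen. P4ha2 was measured at 10.33, 11.06 and 9.74 in prior-and-current, 10.64, 11.04 and 10.83 in prior and 10.77, 10.82 and 10.85 in current tumours, and 10.94 and 10.80 in passage 2 controls, against 9.61, 9.84 and 9.02 in passage 1 RANK-Fc tumours and 9.05 and 9.17 in passage 1 controls. P4ha1 was measured at 7.37, 7.79 and 7.20 in prior-and-current, 7.20, 7.84 and 7.75 in prior and 7.67, 7.95 and 7.98 in current tumours, and 7.70 and 7.61 in passage 2 controls, against 7.05, 7.31 and 7.25 in passage 1 RANK-Fc tumours and 7.10 and 7.32 in passage 1 controls. Both rose, P4ha2 by 1.46 ± 0.22 (SE, adjusted p = 0.00123) and P4ha1 by 0.51 ± 0.15 (SE, adjusted p = 0.0461). The P4ha1 call was lost in 4 of 11 other settings and in 10 of the 16 fits on 15 tumours, with adjusted p of up to 0.198. For both, the 5 passage 2 tumours without prior RANK-Fc lay above all passage 1 tumours.

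Ddit4 restrains the growth kinase mTOR under stress. It had 15.09, 15.24 and 15.14 in prior-and-current, 14.87, 15.46 and 15.13 in prior and 15.35, 15.05 and 14.63 in current tumours, and 15.30 and 15.12 in passage 2 controls, against 14.61, 14.60 and 14.62 in passage 1 RANK-Fc tumours and 14.24 and 14.42 in passage 1 controls. All 11 passage 2 tumours were higher than the 5 of passage 1, and Ddit4 rose by 0.62 ± 0.14 (SE, adjusted p = 0.014). Kdm3a is a histone demethylase that needs oxygen. Its levels were 10.95, 11.24 and 11.26 in prior-and-current, 10.95, 11.44 and 11.45 in prior and 11.29, 11.36 and 11.18 in current tumours, and 11.45 and 11.33 in passage 2 controls, against 10.56, 10.76 and 10.61 in passage 1 RANK-Fc tumours and 10.71 and 10.63 in passage 1 controls. The 2 passages did not overlap, and the difference was 0.64 ± 0.11 (SE, adjusted p = 0.00331). Such complete separation of 11 from 5 tumours was found for 5 members (Ankrd37, Ddit4, Kdm3a, Hk2 and Pdk1) and for 1.24% of all genes.

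Car9, a carbonic anhydrase of the cell surface and a widely used marker of hypoxia, did not pass the test. Its levels were 9.65, 10.72 and 9.61 in prior-and-current, 10.71, 10.74 and 10.54 in prior and 10.11, 9.92 and 9.63 in current tumours, and 9.97 and 9.75 in passage 2 controls. Passage 1 gave 10.13, 10.42 and 9.96 in RANK-Fc tumours and 9.62 and 10.37 in controls. The passages overlapped, with a difference of -0.27 ± 0.23 (SE, adjusted p = 0.49). The 3 prior tumours and prior-and-current replicate 2 lay above all current, passage 2 control and passage 1 tumours. Lox, which crosslinks collagen, differed by 0.01 ± 0.34 (SE, adjusted p = 0.992) and stood at 9.02 in current replicate 3 against 6.69 to 7.32 in the other 15 tumours.

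**Figure D3:**
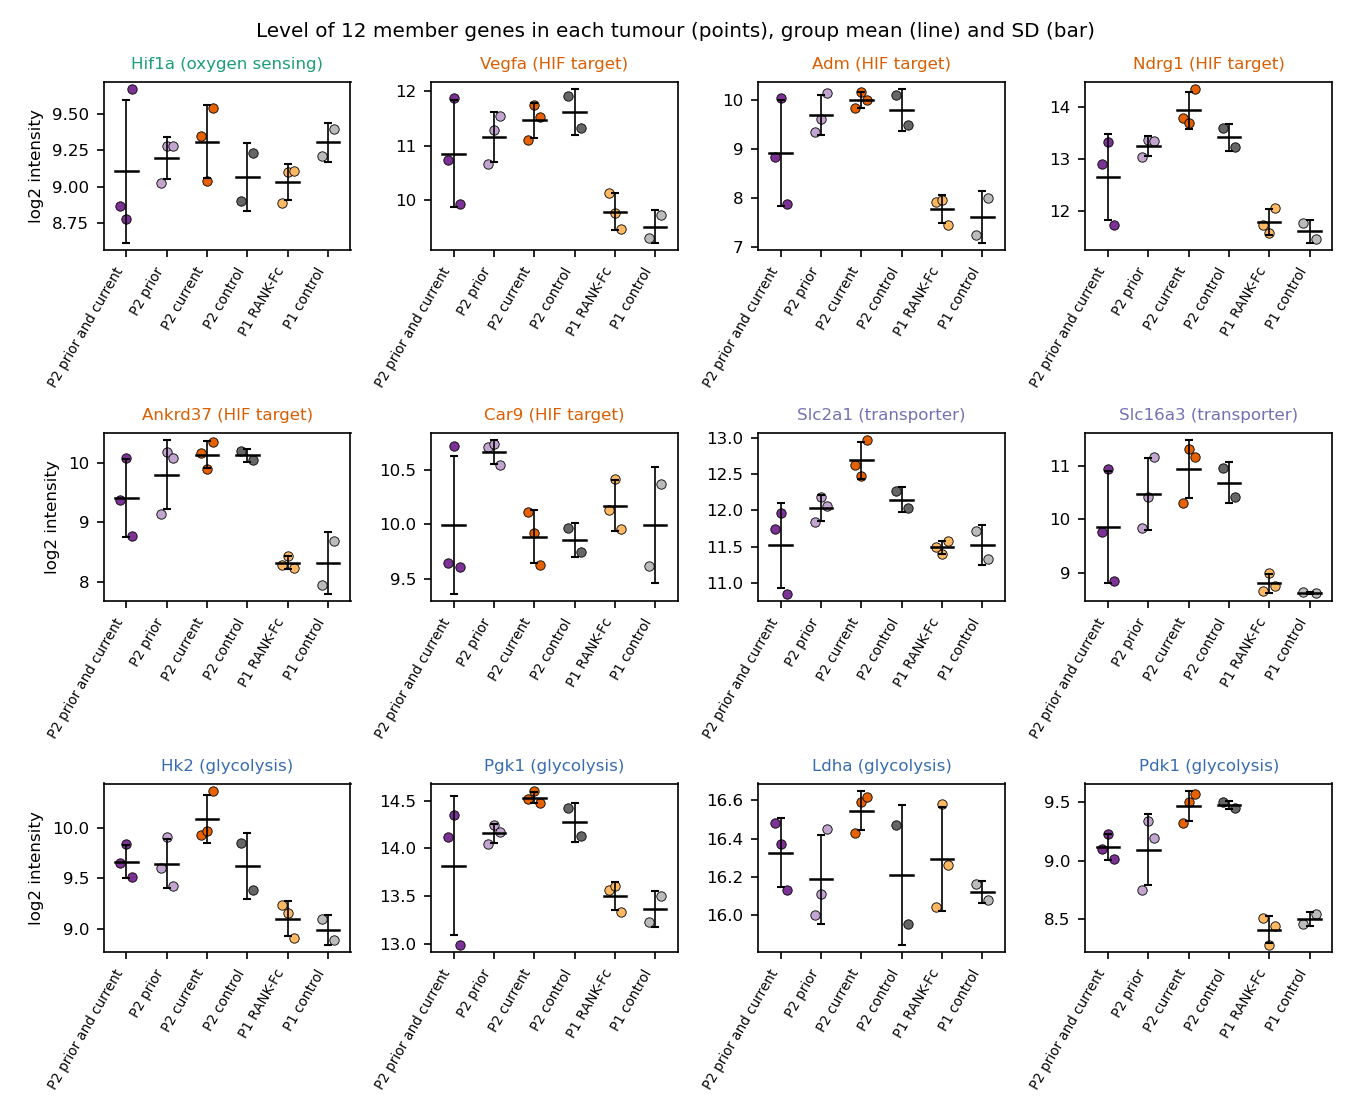
Log2 intensity of 12 members in each tumour by group, with the group mean as line and the SD as bar (3 tumours a group, 2 in controls). Vegfa, Adm, Ndrg1, Ankrd37 and Slc16a3 separate the passage 2 current and control tumours from passage 1, while in Hif1a, Car9 and Ldha these tumours overlap.

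Of the transporters, those for glucose entry and lactate exit rose. Slc2a1, the main glucose transporter of most cells, was measured at 11.74, 11.96 and 10.85 in prior-and-current, 11.84, 12.19 and 12.06 in prior and 12.63, 12.47 and 12.97 in current tumours, and 12.27 and 12.03 in passage 2 controls. Passage 1 tumours had 11.50, 11.40 and 11.58 in RANK-Fc tumours and 11.72 and 11.33 in controls. The current tumours were the highest group, prior-and-current replicate 3 lay below every passage 1 tumour, and the passage difference was 0.92 ± 0.18 (SE, adjusted p = 0.00605). Slc16a3, which exports lactate from glycolytic cells, gave 9.76, 10.94 and 8.85 in prior-and-current, 9.83, 10.42 and 11.16 in prior and 10.31, 11.32 and 11.17 in current tumours, and 10.95 and 10.41 in passage 2 controls. The passage 1 values were 8.66, 9.0 and 8.74 in RANK-Fc tumours and 8.64 and 8.61 in controls. It rose by 2.00 ± 0.34 (SE, adjusted p = 0.00277), 3.99-fold, with 2.00 and 2.08 for its probes. Slc2a3, the high-affinity glucose transporter of neurons, was above background in 13 of 16 tumours and differed by 0.14 ± 0.09 (SE, adjusted p = 0.335).

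Along glycolysis 9 of 16 genes rose and 1 fell. At the first step, Hk2, the hexokinase of muscle and many tumours, rose and Hk1, the hexokinase of most other tissues, fell. Hk2 had 9.65, 9.84 and 9.51 in prior-and-current, 9.60, 9.91 and 9.43 in prior and 9.93, 9.97 and 10.36 in current tumours, and 9.85 and 9.39 in passage 2 controls, against 9.24, 9.16 and 8.91 in passage 1 RANK-Fc tumours and 9.10 and 8.89 in passage 1 controls. Its difference was 0.78 ± 0.13 (SE, adjusted p = 0.00249), with all 11 passage 2 tumours above passage 1. Hk1 had 12.89, 13.10 and 13.06 in prior-and-current, 13.47, 12.89 and 13.33 in prior and 13.10, 13.17 and 13.12 in current tumours, and 12.98 and 12.74 in passage 2 controls, against 13.40, 13.76 and 13.09 in passage 1 RANK-Fc tumours and 13.51 and 13.40 in passage 1 controls. Its difference was -0.44 ± 0.13 (SE, adjusted p = 0.0413), the passages overlapped, and its other probe gave -0.01. The Hk1 call was lost in 6 of 11 other settings and in 11 of the 16 fits on 15 tumours, with adjusted p between 0.0256 and 0.198. Beside Hk1, Bnip3 and P4ha1, the call was lost for Ddit4, Gapdh, Kdm3a, Pfkfb3, Pfkl, Pkm and Tpi1, in 1 or 2 of 11 settings and in 0 to 7 of 16 fits each.

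Of the genes around phosphofructokinase, the liver-type subunit Pfkl and the activating enzyme Pfkfb3 rose. Pfkl had 12.33, 12.45 and 11.39 in prior-and-current, 11.53, 11.64 and 12.14 in prior and 11.78, 12.68 and 12.28 in current tumours, and 12.31 and 12.13 in passage 2 controls, against 11.32, 11.11 and 11.51 in passage 1 RANK-Fc tumours and 11.27 and 11.76 in passage 1 controls. Pfkfb3, which makes the allosteric activator of phosphofructokinase, had 10.69, 11.10 and 9.37 in prior-and-current, 11.06, 11.39 and 10.79 in prior and 11.01, 11.52 and 11.02 in current tumours, and 11.66 and 11.01 in passage 2 controls, against 10.31, 10.19 and 10.11 in passage 1 RANK-Fc tumours and 10.60 and 10.07 in passage 1 controls. Their differences were 0.79 ± 0.21 (SE, adjusted p = 0.0304) and 0.95 ± 0.23 (SE, adjusted p = 0.018). In both genes passage 1 lay below the passage 2 tumours without prior RANK-Fc. Pfkp, the platelet-type subunit, had 9.63, 10.17 and 9.43 in prior-and-current, 9.79, 10.32 and 10.25 in prior and 10.35, 10.51 and 10.93 in current tumours, and 10.29 and 10.20 in passage 2 controls, against 9.57, 9.88 and 9.78 in passage 1 RANK-Fc tumours and 9.93 and 10.17 in passage 1 controls. Averaged over both comparisons it differed by 0.48 ± 0.16 (SE, adjusted p = 0.0792), and its 2 probes had opposite signs, -0.12 and 0.48. Pfkfb4 differed by -0.20 ± 0.15 (SE, adjusted p = 0.445).

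Most later enzymes of glycolysis rose as well. Tpi1, which interconverts the triose phosphates, had 14.43, 14.61 and 14.05 in prior-and-current, 13.89, 14.35 and 14.64 in prior and 14.31, 14.59 and 14.54 in current tumours, and 14.23 and 14.35 in passage 2 controls, against 13.36, 13.67 and 13.80 in passage 1 RANK-Fc tumours and 13.46 and 13.92 in passage 1 controls. Gapdh had 16.48, 16.46 and 15.76 in prior-and-current, 16.26, 16.15 and 16.44 in prior and 16.33, 16.72 and 16.37 in current tumours, and 16.33 and 16.11 in passage 2 controls, against 15.93, 16.03 and 15.91 in passage 1 RANK-Fc tumours and 15.91 and 15.75 in passage 1 controls. They rose by 0.71 ± 0.17 (SE, adjusted p = 0.0179) and 0.45 ± 0.11 (SE, adjusted p = 0.0177), and the 7 probes of Gapdh gave between 0.45 and 0.71. Gapdh is often used to scale other measurements, and here it differed between the passages.

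Pgk1, the first step of glycolysis that returns ATP, was measured at 14.12, 14.35 and 12.99 in prior-and-current, 14.05, 14.25 and 14.17 in prior and 14.52, 14.60 and 14.48 in current tumours, and 14.42 and 14.13 in passage 2 controls. Passage 1 gave 13.56, 13.61 and 13.33 in RANK-Fc tumours and 13.23 and 13.50 in controls. It rose by 0.94 ± 0.19 (SE, adjusted p = 0.00772). Pgam1, phosphoglycerate mutase, was measured at 14.10, 14.20 and 13.33 in prior-and-current, 13.87, 14.00 and 14.21 in prior and 14.15, 14.35 and 14.34 in current tumours, and 14.24 and 13.92 in passage 2 controls, against 13.49, 13.65 and 13.48 in passage 1 RANK-Fc tumours and 13.40 and 13.33 in passage 1 controls. It rose by 0.72 ± 0.14 (SE, adjusted p = 0.00525), and for both genes prior-and-current replicate 3 lay within or below the passage 1 range.

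Pkm, pyruvate kinase, had 14.67, 14.68 and 13.86 in prior-and-current, 14.36, 14.27 and 14.73 in prior and 14.35, 15.01 and 14.64 in current tumours, and 14.61 and 14.37 in passage 2 controls, against 13.98, 13.89 and 14.05 in passage 1 RANK-Fc tumours and 13.86 and 14.14 in passage 1 controls. It rose by 0.58 ± 0.15 (SE, adjusted p = 0.0265). The glucose phosphate isomerase Gpi1 had 15.26, 15.41 and 14.99 in prior-and-current, 15.16, 15.32 and 15.31 in prior and 15.39, 15.59 and 15.46 in current tumours, and 15.41 and 15.14 in passage 2 controls, against 15.15, 15.54 and 15.29 in passage 1 RANK-Fc tumours and 14.98 and 15.02 in passage 1 controls. Its difference was 0.20 ± 0.11 (SE, adjusted p = 0.261), with overlapping passages. Within passage 1 the RANK-Fc tumours lay above both controls, a difference that did not pass the test. Eno1, enolase, differed by 0.45 ± 0.16 (SE, adjusted p = 0.0911) and Aldoa, aldolase, by 0.00 ± 0.17 (SE, adjusted p = 0.991), so neither passed.

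Of the members that direct the fate of pyruvate, Pdk1 rose and Ldha did not pass the test. Pdk1, the kinase that shuts pyruvate dehydrogenase, had 9.10, 9.23 and 9.01 in prior-and-current, 8.75, 9.34 and 9.19 in prior and 9.32, 9.50 and 9.57 in current tumours, and 9.50 and 9.45 in passage 2 controls. The passage 1 levels were 8.51, 8.28 and 8.44 in RANK-Fc tumours and 8.46 and 8.54 in controls. All 11 passage 2 tumours lay above passage 1, and the difference of 0.97 ± 0.11 (SE, adjusted p = 0.000266) had the smallest p of all members. Ldha, which turns pyruvate into lactate, had 16.48, 16.37 and 16.13 in prior-and-current, 16, 16.11 and 16.45 in prior and 16.43, 16.59 and 16.62 in current tumours, and 16.47 and 15.95 in passage 2 controls, against 16.04, 16.58 and 16.26 in passage 1 RANK-Fc tumours and 16.16 and 16.08 in passage 1 controls. The passages overlapped, and the difference of Ldha was 0.19 ± 0.14 (SE, adjusted p = 0.428). The promoter of Ldha printed above holds 5 copies of ACGTG, the most of any member in the table.

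Within the averaged comparison, the contrast of 2 passage 2 controls with 2 passage 1 controls called 6 members, all higher, and 3.30% of all genes (0.933% higher, 2.36% lower). The contrast of 3 current with 3 passage 1 RANK-Fc tumours, which shares no tumour with it, called 15, all higher, and 6.28% of all genes (2.34% higher, 3.94% lower). The 2 contrasts do share arrays and 1 estimate of the spread, so they are not independent. Members called in both numbered 6: Vegfa, Adm, Ndrg1, Ankrd37, P4ha2 and Pdk1. The matching share over all genes is not available here, so this count describes the members alone. Slc2a1 differed by 0.67 ± 0.27 (SE, adjusted p = 0.25) between controls and by 1.17 ± 0.21 (SE, adjusted p = 0.00953) between RANK-Fc tumours. Pfkp passed in the RANK-Fc tumours, with 0.79 ± 0.19 (SE, adjusted p = 0.0327), and gave 0.17 ± 0.25 (SE, adjusted p = 0.819) in controls. The difference between the 2 contrasts was itself tested as the change of the RANK-Fc effect between passages, and no member passed (0% of all genes called). The unadjusted p was under 0.05 for 1 member (2.86%) and for 1.79% of all genes. With 1 tumour of these controls left out, the count between controls was 0 in each of 4 fits. The count between RANK-Fc tumours was 3 without passage 1 RANK-Fc replicate 1, 6 without current replicate 2, 7 without passage 1 RANK-Fc replicate 3 and 9 without current replicate 3. The averaged count was 12 when replicate 1 of either control group was left out, and 13 without passage 2 control replicate 2 or passage 1 RANK-Fc replicate 1.

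Markers of cell types were compared between the same tumours. Of 7 epithelial markers Cldn4, and of 3 neutrophil markers tested S100a8, were called higher in passage 2 (0.94 and 1.88), and no marker of endothelium, muscle, fibroblasts, macrophages, erythroid cells, adipocytes or proliferation was called. All 6 fibroblast markers lay below 0, with a median difference of -0.89 and 2 unadjusted p-values under 0.05, and all 4 adipocyte markers tested lay below 0, with a median of -1.04 and 3 such p-values. The size of both medians exceeds that of the members, 0.58. An unadjusted p under 0.05 was found for 33.3% of the fibroblast markers, near the 26.6% of all genes, and for 75% of the adipocyte markers. Mean levels ran from 12.32 to 12.70 in passage 2 without prior RANK-Fc and from 12.21 to 12.55 in passage 1 for epithelium. They ran from 8.16 to 8.56 in passage 2 and from 8.17 to 8.48 in passage 1 for endothelium. For fibroblasts they were 10.23 to 13.33 in passage 2 against 11.66 to 12.38 in passage 1, for macrophages 9.98 to 11.14 against 10.03 to 10.67, and for neutrophils 11.94 to 13.58 against 11.42 to 12.34. For skeletal muscle they were 6.99 to 8.32 in passage 2 against 6.94 to 7.46 in passage 1, for erythroid cells 9.25 to 11.71 against 9.20 to 10.05, for adipocytes 7.67 to 9.23 against 8.48 to 11.27, and for proliferation 10.52 to 11.16 against 10.57 to 11.07. Of the markers that could not be tested, Ckm, Tnnt3, Myh4, Cxcr2 and Lep were above background in 1 to 5 tumours. The part of cell composition in the members' differences was not tested.

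Other genes of the same pathways, from lists also chosen with earlier results known, were tested in the same comparison. In it 4.26% of all genes were higher and 7.73% lower. Of 39 further hypoxia genes tested (of 40 listed), 12 rose and 3 fell between the passages, with a median difference of 0.249. The 3 of 39 that fell are close to the share of all genes that was lower. Higd1a, a mitochondrial protein induced by hypoxia, rose by 0.80 ± 0.08 (SE, adjusted p = 0.000195). Plin2, which coats lipid droplets, rose by 1.55 ± 0.17 (SE, adjusted p = 0.000198), and Hmox1, heme oxygenase, by 1.53 ± 0.24 (SE, adjusted p = 0.00169). Ero1a, an oxidase of the endoplasmic reticulum, rose by 0.99 ± 0.15 (SE, adjusted p = 0.0012), the transcription repressor Bhlhe40 by 0.91 ± 0.16 (SE, adjusted p = 0.00316) and the mitochondrial Fam162a by 0.84 ± 0.14 (SE, adjusted p = 0.00199). Among the others that rose were Nfil3 (0.69), Hilpda (0.47), Tfrc (0.46), Mif (0.46) and Bnip3l (0.44). Those that fell were Ppp1r3c, which targets a phosphatase to glycogen, by 2.20 ± 0.25 (SE, adjusted p = 0.000266), the carbonic anhydrase Car12 by 0.96 ± 0.18 (SE, adjusted p = 0.00426) and the chemokine Cxcl12 by 0.69 ± 0.19 (SE, adjusted p = 0.0351).

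Of 31 further genes of sugar and pyruvate metabolism tested (of 34), 3 rose and 1 fell, with a median of 0.10, again beside 4.26% and 7.73% of all genes. Eno2, another enolase, rose by 1.02 ± 0.26 (SE, adjusted p = 0.0226). Pgd and G6pdx, of the oxidative pentose phosphate pathway, rose by 0.66 ± 0.12 (SE, adjusted p = 0.00322) and 0.36 ± 0.10 (SE, adjusted p = 0.0333). Fbp1, the gluconeogenic enzyme that opposes phosphofructokinase, fell by 2.43 ± 0.44 (SE, adjusted p = 0.00356).

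RANK-Fc was examined next, with the effect of current treatment asked first. In these comparisons the median over all genes lay between -0.014 and 0.024. No member passed the limma test for current RANK-Fc averaged over 3 backgrounds, and 0% of all genes did. An unadjusted p under 0.05 was found for 2 members (5.71%) and for 6.68% of all genes. In passage 1, RANK-Fc against control gave a median difference over the members of 0.05, with 0% of all genes called. The unadjusted p was under 0.05 for 2 members (5.71%) and for 1.61% of all genes. The 2 members were Gpi1, at 0.35 ± 0.14 (SE, adjusted p = 1), and Hif1a, at -0.34 ± 0.15 (SE, adjusted p = 1). In passage 2, current RANK-Fc against control gave a median of 0.19 with 29 of 35 members and 7768 of 14141 genes above 0, and again 0% of all genes called. An unadjusted p under 0.05 was found for 3 members (8.57%) and for 3.97% of all genes. Hk2 came first on the higher side at 0.49 ± 0.17 (SE, adjusted p = 1), and Ddit4 on the lower side at -0.17 ± 0.19 (SE, adjusted p = 1). Ddit4 was at 0.02 without current replicate 3, the tumour with high stromal markers. After prior treatment, prior-and-current against prior tumours gave a median of -0.18 and 0% of all genes called. Here 7 members (20%) and 9.93% of all genes had an unadjusted p under 0.05. Vhl came first on the lower side at -0.34 ± 0.13 (SE, adjusted p = 0.367), and Ldha on the higher side at 0.14 ± 0.17 (SE, adjusted p = 0.838).

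Prior RANK-Fc went with lower values for most members, none of them past the test. Averaged over both backgrounds, the median was -0.22, 31 of 35 members and 7248 of 14141 genes lay below 0, and 0 members and 0.361% of all genes were called. An unadjusted p under 0.05 was found for 12 members (34.3%) and for 15.5% of all genes. All 6 macrophage markers also lay below 0, with a median of -0.56, 4 unadjusted p-values under 0.05 and none called; their part was not tested. Slc2a1 had the smallest p at -0.67 ± 0.17 (SE, adjusted p = 0.107), followed by Ndrg1 at -0.77 ± 0.23 (SE, adjusted p = 0.147) and Pdk1 at -0.35 ± 0.10 (SE, adjusted p = 0.153). Of the further hypoxia genes, Hmox1 was called in this comparison, at -1.25 ± 0.23 (SE, adjusted p = 0.0416). Prior against passage 2 control tumours gave a median of -0.08 with 0 members and 0.00707% of all genes called. The unadjusted p was under 0.05 for 2 members (5.71%) and for 7.64% of all genes. The 2 members were Car9, at 0.82 ± 0.31 (SE, adjusted p = 0.51), and Pdk1, at -0.33 ± 0.15 (SE, adjusted p = 0.617).

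Tumours with both treatments were compared with passage 2 controls and with current tumours. Against passage 2 controls the median was -0.19, with 0 members and 0.0778% of all genes called. Here 7 members (20%) and 9% of all genes had an unadjusted p under 0.05. Pfkfb3 came first among the lower members at -0.92 ± 0.32 (SE, adjusted p = 0.407), and Hk1 among the higher ones at 0.10 ± 0.18 (SE, adjusted p = 0.901). Against current tumours the median was -0.42, with 33 of 35 members below 0 and 18 with an unadjusted p under 0.05, against 16.7% of all genes with such a p. No member was called, and 0.149% of all genes were. Slc2a1 came nearest at -1.22 ± 0.22 (SE, adjusted p = 0.0538), then Ndrg1 at -1.37 ± 0.30 (SE, adjusted p = 0.0862) and Pfkp at -0.86 ± 0.20 (SE, adjusted p = 0.0932). Ddit4 had the smallest p among the 2 higher members, at 0.20 ± 0.17 (SE, adjusted p = 0.595). These contrasts share tumours with each other, so their values are given side by side and not as repeats. The macrophage markers moved the same way, with 6 of 6 at an unadjusted p under 0.05, none called, and means of 9.85 to 9.97 in prior-and-current against 9.98 to 11.14 in current tumours. All 6 fibroblast markers lay below 0 too, with a median of -1.002, 0 unadjusted p-values under 0.05 and means of 10.54 to 11.10 in prior-and-current against 10.75 to 13.33 in current tumours. The part of both cell types was not tested.

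All 3 prior-and-current tumours lay below all 3 current tumours for 9 of 35 members, which was so for 4.48% of all genes: Vhl, Egln3, Ndrg1, Slc2a1, Hk1, Hk2, Pfkp, Pgk1 and Pdk1. They lay below both passage 2 controls for 5 members (Vhl, Kdm3a, Slc2a1, Pfkp and Pdk1) and for 8.86% of all genes. The 6 tumours with prior RANK-Fc lay all above passage 1 for 5 members, as did 2.34% of all genes. No member passed the test of an interaction between prior and current treatment, whose median was -0.43 with 0% of all genes called. The unadjusted p was under 0.05 for 5 members (14.3%) and for 6.8% of all genes.

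The size of these medians depended on how the arrays were scaled. With median centring the median of all genes itself moved, and the members' median lay below it in each case: -0.04 over the members and 0.15 over all genes for prior RANK-Fc averaged, and 0.07 and 0.13 for prior against control tumours. For prior-and-current tumours it was 0.03 over the members and 0.20 over all genes against controls, and -0.20 and 0.17 against current tumours.

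**Figure D4:**
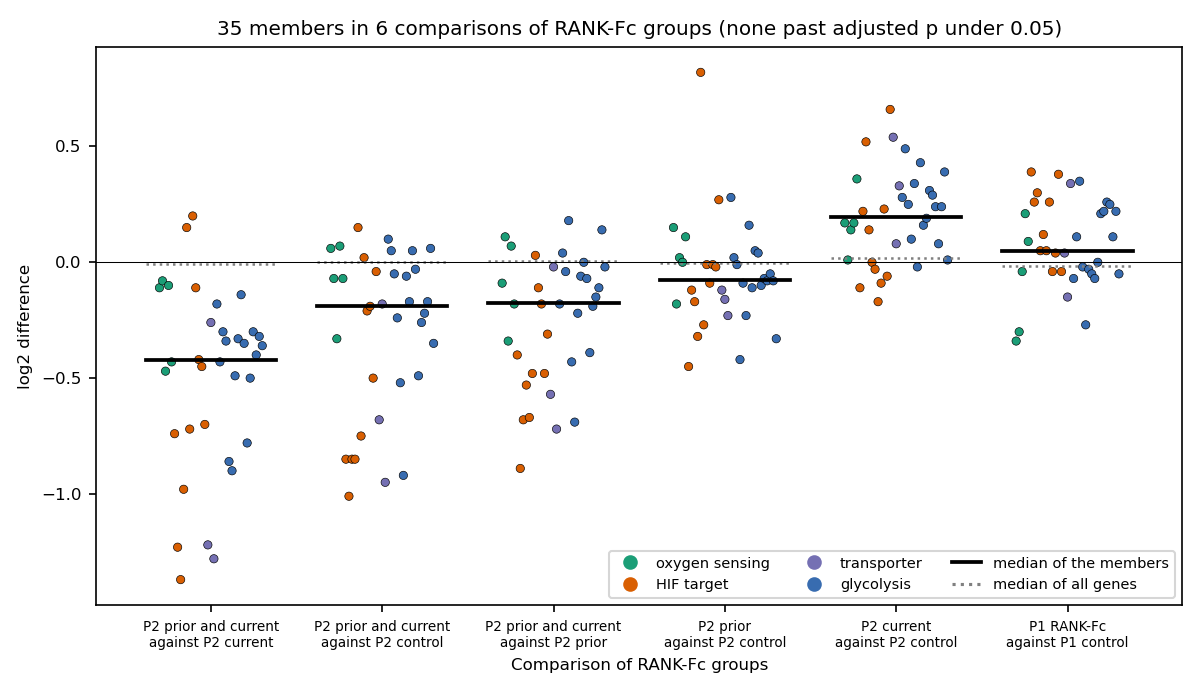
Log2 differences of the 35 members tested (points, coloured by role) in 6 comparisons of RANK-Fc groups, with the median of the members as solid line and that of all genes as dotted line. The members' median is lowest, -0.42, for prior-and-current against current tumours, where Ndrg1 reaches -1.37.

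Prior-and-current replicate 3 stood apart within passage 2. It was the lowest of the 11 passage 2 tumours for 15 of the 20 members that rose between passages, and it lay within or below the passage 1 range for 14 of them. Next came prior replicate 1, lowest for 2 and within or below that range for 3. The 20 members were picked by high values in current and control tumours, which favours low ranks in the other groups. Matching shares over all genes are not available here, so these counts describe the members alone. The median deviation of the 20 genes from their means over all tumours was -0.55 in prior-and-current replicate 3, against 0.07 and 0.38 in the other prior-and-current tumours. In passage 1 it ran from -0.60 to -0.46. Over all 35 members tested it ran from -0.45 to -0.20 in passage 1. There it was -0.02 and 0.30 in prior-and-current replicates 1 and 2 and -0.48 in prior-and-current replicate 3. That tumour did not stand apart in epithelial markers (median deviation 0.09), proliferation (0.07) or endothelium (-0.01), while its adipocyte value was 0.92. Its neutrophil (-0.38) and macrophage (-0.42) values were the lowest of the 16 tumours. The macrophage value lay close to the -0.34 and -0.40 of the other prior-and-current tumours. The Hif1a level of prior-and-current replicate 3, 9.67, was the highest of the 16 tumours. It was measured in Cy3, and replicates 1 and 2 of its group (8.87 and 8.78) in Cy5. The part of the dye in this level was not tested. Without prior-and-current replicate 3 the members' median for prior-and-current against current tumours was -0.22 in place of -0.42, and against prior tumours 0.03 in place of -0.18.

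Across the 11 passage 2 tumours the raised members varied together. The median of Pearson's r over their 190 pairs was 0.68 and the mean was 0.61, against a mean of 0.007 over all pairs of genes. Over 10 tumours without prior-and-current replicate 3 the median was 0.53. Over all 11 tumours the median was 0.61 within glycolysis (120 pairs), 0.40 within the HIF targets (55 pairs) and 0.02 within oxygen sensing (10 pairs, 0.34 without that tumour). These values describe 4 groups of tumours that share arrays and normalisation, and carry no test.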

How the data were processed

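The members, and the lists of pathway genes and markers, were chosen with earlier results of these data known. RNA of 16 tumours was hybridised to 8 two-colour Agilent arrays, and per the labels' protocols it was total RNA labelled for low input. Spot intensity was deposited by the authors from Agilent Feature Extraction 10.7.3.1, per the submitters' processing notes, in linear units. The log10 ratio of red over green in the deposited files was used to check the channels (r between 0.848 and 0.933 with the ratio computed here), and flags and other marks per spot, per the file headers, gave outliers, saturation and signal above background. A normalised table with 8 columns that match no label was not used.

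Median intensities were corrected with normexp (offset 50), normalised by loess within arrays and by Aquantile between arrays, and analysed as log2 intensity in 16 separate channels with limma 3.58.1 in R 4.3.3. Of 59305 spots per array that are not controls, 55681 distinct probes remained, of which 28026 could be given a symbol through their RefSeq accession (RefSeq table on GRCm38.p6, used for names). Probes were kept where all tumours of some group exceeded background by the scanner's flag, the brightest kept probe stood for its gene, and 6 of 14147 genes with a missing value were left out. The model fitted the 6 groups and the dye, and treated the array as a correlated block (intraspot correlation 0.219, corrected by simulation for bias in limma's 0.416), which left 9 residual degrees of freedom. It gave 13 comparisons, with Benjamini-Hochberg adjustment over 14141 genes and a threshold of 0.05. Fits were tested on simulated data. All arrays were on 1 slide with 1 scan time, so no batch could be tested. Each tumour has its own animal number.

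Values in every tumour are given for members called in any comparison, for the member with the smallest p in each direction of each RANK-Fc comparison between groups, and for 14 members that are common readouts; the rest are given by difference. Alternatives changed the background correction, normalisation, filter, probe choice, dye term, correlation, variance trend and samples, and left out each tumour. Some genes of the marker and pathway lists are counted but not reported here by name.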

Additional observations from a re-analysis of the deposited data

How the results depend on the processing

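No paired analysis was possible because the labels give each tumour its own animal number and no number shared between groups. Of the 21 members called between passages, 11 were called under every other setting and 12 in every fit that left out 1 tumour, and the direction of 0 was reversed. With median centring the members past the test were 2 between controls, 8 between RANK-Fc tumours and 11 on average, and the members' medians for prior-and-current tumours were 0.029 against controls and -0.196 against current tumours. Without a filter 3 members passed between controls, and with processed signals the median there was 0.752. Against current tumours, prior-and-current tumours gave 1 member past the test with a filter on all 16 channels and 3 with the uncorrected correlation. Slc2a1 passed there in both settings, with an adjusted p as low as 0.0229.

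With 1 tumour left out, the members past the test ranged from 0 to 9 between controls, from 3 to 20 between RANK-Fc tumours, from 12 to 23 on average and from 0 to 3 for prior-and-current against current tumours, where 3 passed without current replicate 1 and 1 without current replicate 2. The members' medians ranged from -0.031 to 0.25 for RANK-Fc in passage 1, from -0.245 to 0.028 for prior-and-current against prior, from -0.512 to -0.217 for prior-and-current against current, from 0.312 to 0.606 between controls and from -0.526 to -0.165 for the interaction. Ddit4 was reversed without current replicate 3, at 0.02 for current against control (range -0.33 to 0.02) and -0.04 for prior-and-current against current tumours (range -0.04 to 0.33). The cause of these changes was not tested. The correlations without prior-and-current replicate 3 were an alternative chosen after seeing the data. Where a fit leaves 1 control, that tumour is assumed to vary like the other groups. Groups of 2 or 3 tumours limit the precision of every difference, and Slc2a3 rests on 13 tumours above background.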

Other observations

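Lox stood at 9.02 in current replicate 3, the tumour with the highest mean over fibroblast markers (13.33), and between 6.69 and 7.32 in the other 15 tumours.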
